A study of Mus musculus with 2 samples.

Results

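Tnf and 9 genes around it were followed through the leukocytes of the pressure-overloaded mouse heart: the receptor genes Tnfrsf1a and Tnfrsf1b, the NF-kB-induced genes Tnfaip3, Nfkbia, Nfkbiz and Birc3, and the NF-kB subunit genes Nfkb1, Rel and Relb. The 10 genes were taken by name from the 31053 features of the deposited matrices, and all 10 were present in both. The TAC library came from wild-type C57BL/6 mice aged 10 weeks after transverse aortic constriction (TAC), an operation that narrows the aorta and raises the pressure the left ventricle pumps against. The sham library came from wild-type C57BL/6 mice of the same age after a sham operation. CD45+ cells were sorted from digested hearts, with 6 mice per group, and each group is 1 library in which the animals cannot be told apart. With 1 library per group no difference has a replicate check. The intervals given are 95% intervals that cover counting error only.

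Tnf is a cytokine made mainly by activated myeloid cells and first held in the membrane as a trimer. Tnfrsf1a encodes its broadly expressed receptor with a death domain, and Tnfrsf1b the receptor found mostly on leukocytes and endothelium. Signals from the receptors free NF-kB dimers, built from subunits such as those of Nfkb1 and Rel, from the inhibitor IkB-alpha encoded by Nfkbia. NF-kB then switches on genes that dampen the signal: Nfkbia itself and Tnfaip3, which encodes the ubiquitin-editing enzyme A20. Another of its targets, Birc3, encodes the ubiquitin ligase cIAP2, which supports signalling from the Tnfrsf1a receptor and restrains the noncanonical NF-kB pathway. Nfkbiz encodes IkB-zeta, a nuclear protein of the IkB family that is induced early and is needed for a secondary set of target genes.

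Of these genes 3 held the motif that NF-kB dimers bind before their start, and their windows are shown. Whether the motif bears on any level given further on was not tested. Promoter sequences came from RefSeq on GRCm38.p6 and were found for 7 of the 10 genes; Nfkb1, Nfkbiz and Relb had none. The 250 bases before each transcription start were searched on both strands for the 10-base kB consensus, with overlapping matches counted, and capitals mark the matches. All 3 genes lie on the minus strand, and the sequences read 5′ to 3′ towards the start.
Nfkbia (chr12:55492648-55492897): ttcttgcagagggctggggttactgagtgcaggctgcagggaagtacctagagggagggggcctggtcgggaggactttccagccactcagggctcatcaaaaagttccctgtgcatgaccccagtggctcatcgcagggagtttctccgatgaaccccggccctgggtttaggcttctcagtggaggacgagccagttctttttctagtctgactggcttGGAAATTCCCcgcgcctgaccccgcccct
Tnfaip3 (chr10:19015411-19015660): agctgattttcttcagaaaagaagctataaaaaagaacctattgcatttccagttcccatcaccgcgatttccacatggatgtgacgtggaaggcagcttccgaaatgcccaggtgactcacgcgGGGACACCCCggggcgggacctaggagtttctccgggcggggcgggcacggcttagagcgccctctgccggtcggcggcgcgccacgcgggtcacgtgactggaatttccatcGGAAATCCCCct
Rel (chr11:23770970-23771219): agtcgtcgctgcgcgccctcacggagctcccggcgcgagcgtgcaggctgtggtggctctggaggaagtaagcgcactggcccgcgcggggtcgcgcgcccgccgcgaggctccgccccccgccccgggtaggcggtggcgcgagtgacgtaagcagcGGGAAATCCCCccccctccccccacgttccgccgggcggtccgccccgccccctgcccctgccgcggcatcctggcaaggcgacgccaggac
The Nfkbia window held the site GGAAATTCCC, which ends 19 bases before the start. The Tnfaip3 window shown held GGGACACCCC, ending 115 bases before the start, and GGAAATCCCC, ending 2 bases before it. Another Tnfaip3 window, before a further start site (chr10:19011964-19012213), did not hold the motif. In the Rel window GGGAAATCCC and GGAAATCCCC overlap and end 82 and 81 bases before the start. Of all 27025 genes with such a window, 8.23% held the motif, and it was in none of the windows of Tnf, Tnfrsf1a, Tnfrsf1b and Birc3. A match is a description of letters, not evidence of binding.

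Tnf lies at chr17:35199381-35202007 on the minus strand (GRCm38, GENCODE vM21) and also carries the AU-rich repeats in its 3′ untranslated region that decay proteins such as tristetraprolin (Zfp36) bind. The densest 30 bases, from GENCODE vM21, are bases 435 to 464 of that region, with the nonamer TTATTTATT in capitals.
Tnf: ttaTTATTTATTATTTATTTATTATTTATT
The nonamer occurred 4 times in this stretch and 5 times in the 764 bases of the region. It occurred 3 times in Birc3, 1 time each in Tnfaip3, Nfkbia and Rel, and not in the remaining 5 genes. Of 20962 protein-coding genes with a 3′ untranslated region, 7.58% held it at least 1 time.

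After cells with under 300 genes or over 10% mitochondrial unique molecular identifiers (UMIs, each a counted RNA molecule) were left out, 5601 of 7975 TAC barcodes and 4169 of 11941 sham barcodes remained, with medians of 13892 and 9536 UMIs. Ptprc, the gene of CD45, had a UMI in 87.3% of TAC and 87.5% of sham barcodes. The barcodes fell into 21 clusters, which were named from marker genes, and 8 classes had at least 50 cells in each library. These were macrophages (2767 TAC and 2657 sham cells), monocytes (397 and 431), neutrophils (1195 and 178), T cells (301 and 151), NK cells (77 and 53), B cells (59 and 167), fibroblasts (248 and 212) and endothelial cells (411 and 112). Fibroblasts and endothelial cells go against the CD45+ label. In addition 2 clusters stayed unnamed, with 94 TAC and 177 sham cells. Barcodes with at least 20 UMIs of the complement genes C1qa, C1qb and C1qc per 10000, a macrophage amount, made up 43.5% of TAC and 91.6% of sham neutrophils, 71.4% and 94.0% of T cells, 51.9% and 94.3% of NK cells, 72.9% and 98.8% of B cells, and 40.1% and 77.5% of monocytes. Whether such barcodes held more than one cell or free RNA was not tested, and values for barcodes under that amount, called C1q-low, are given beside those of all barcodes. The libraries shared 35 barcode sequences, of which 29 TAC and 9 sham barcodes were kept.

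**Figure D1:**
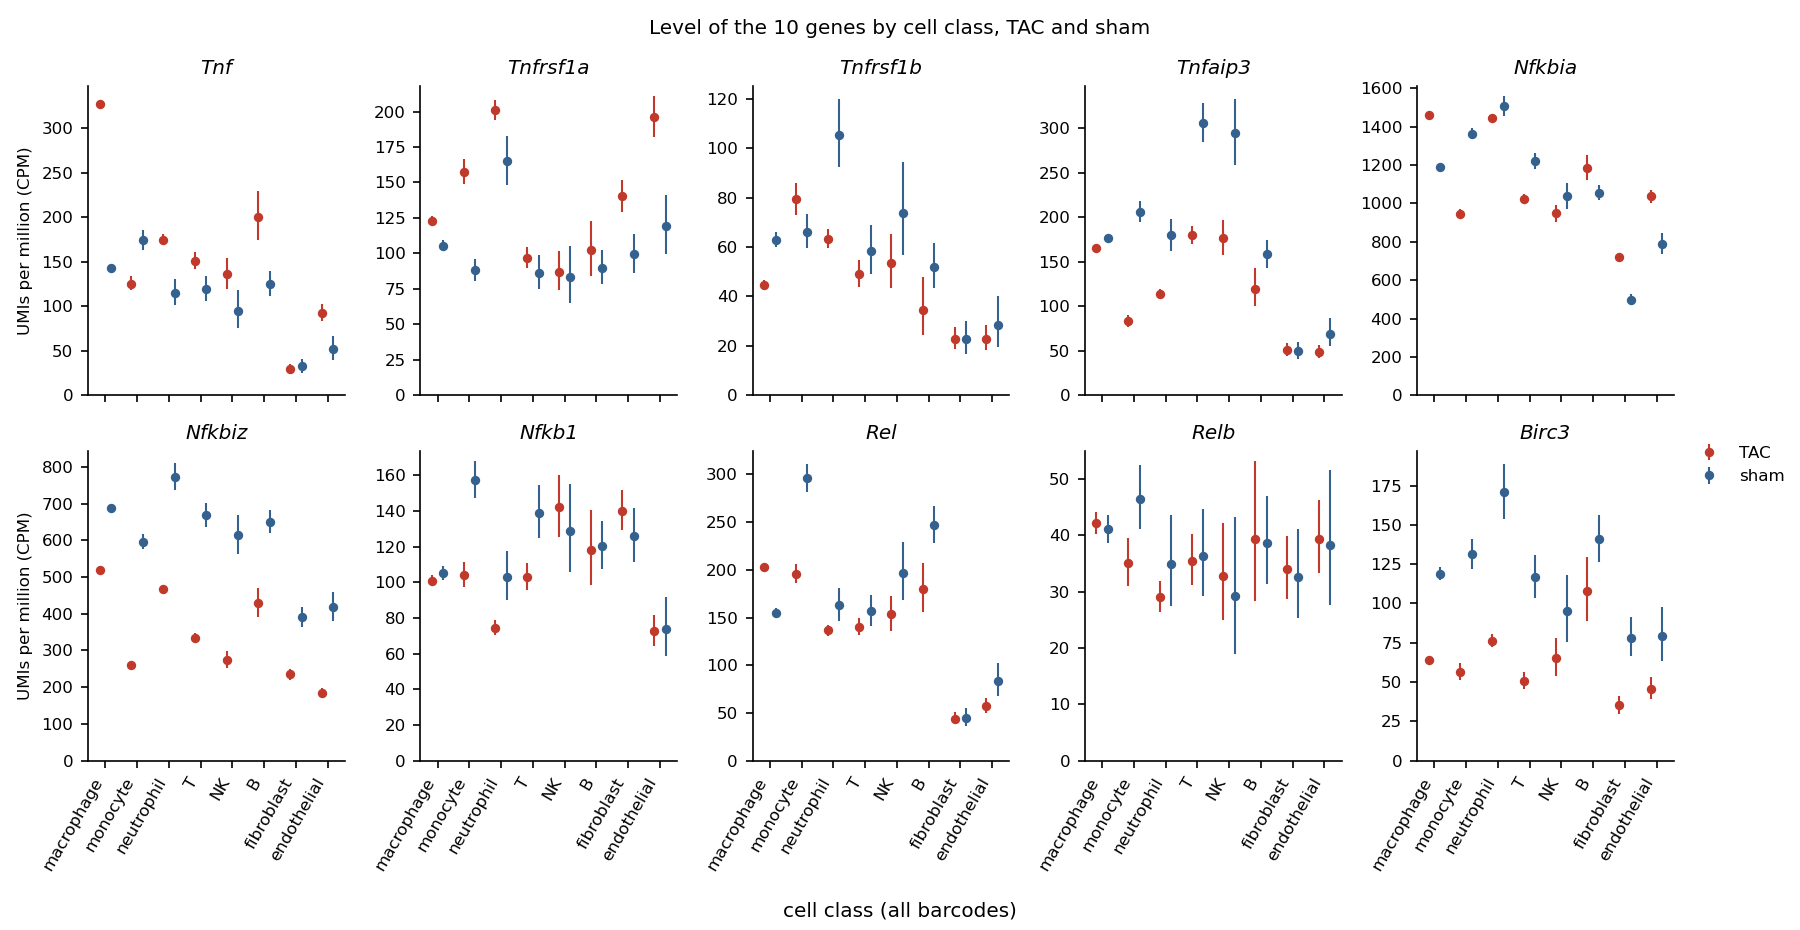
Levels in CPM (vertical axes, each from 0) of the 10 genes in the 8 compared classes (horizontal axes), TAC in red left of sham in blue, with exact Poisson 95% intervals and all barcodes of a class included. Tnf stood highest in TAC macrophages, and Nfkbiz and Birc3 were lower in TAC in all 8 classes.

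Tnf RNA was concentrated in macrophages of the TAC heart. Macrophages held 68.8% of the Tnf UMIs of kept TAC cells, where they held 48.7% of all UMIs, and 54.5% of the Tnf UMIs of kept sham cells, where they held 51.1% of all UMIs. Levels are in CPM, the UMIs of a gene scaled by all UMIs of the class, and are not compared between genes. In TAC the level was 327 CPM in macrophages, 200.5 in B cells, 175 in neutrophils, 151 in T cells, 136 in NK cells, 126 in monocytes, 92.6 in endothelial cells and 29.6 in fibroblasts. The TAC interval for macrophages overlapped that of no other class, while B cells overlapped neutrophils, and T cells, NK cells and monocytes overlapped in turn. In sham the level was 174 CPM in monocytes, 143 in macrophages, 125 in B cells, 120 in T cells, 115 in neutrophils, 94.96 in NK cells, 51.6 in endothelial cells and 32.5 in fibroblasts. From sham macrophages down to NK cells each class overlapped the next. Of the 431 sham monocytes 382 lay in cluster 16, which had a median C1q of 83.6 UMIs per 10000. Its name came from 3 monocyte markers among its leading genes, while macrophage had the highest share of markers detected, at 68.9%. In its sham cells monocyte markers summed to 1848 CPM and macrophage markers to 49220 CPM. The first rank of sham monocytes therefore rests mostly on a cluster with much macrophage RNA.

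In the compared classes much of the Tnf outside macrophages lay in barcodes with C1q. TAC neutrophils had 227 CPM of Tnf in the 520 C1q-rich barcodes and 54.4 CPM in the 675 C1q-low ones. TAC B cells had 234 CPM in 43 C1q-rich and 12.5 CPM in 16 C1q-low barcodes, the latter from only 2 UMIs. Sham monocytes had 198 CPM in 334 C1q-rich and 77.0 CPM in 97 C1q-low barcodes. TAC T cells had 173 CPM in 215 C1q-rich and 38.3 CPM in 86 C1q-low barcodes, and TAC endothelial cells 347 CPM in 42 C1q-rich and 11.7 CPM in 369 C1q-low barcodes. C1q-low fibroblasts, which should make little Tnf, had 15.01 CPM in TAC and 3.66 CPM in sham, from 57 and 6 UMIs. A C1q-low level near those values cannot be told apart from free RNA. Clusters without a class name also held Tnf. The unnamed clusters held 779 Tnf UMIs in TAC and 998 in sham, 3.73% and 14.7% of those of kept cells. They held 4.73% and 14.6% of all UMIs. Their median C1q was only 1.41 UMIs per 10000 in TAC and 0.813 in sham. Macrophage was the best-matched class of clusters 11 and 12, which stayed unnamed, with 53.3% and 55.6% of its markers detected. Cluster 12 (69 TAC and 128 sham cells) missed the macrophage name only through the C1q minimum. Its low C1q therefore follows from the naming rule, and whether its Tnf is that of macrophages was not tested.

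In macrophages Tnf stood at 327 CPM in TAC against 143 CPM in sham, from 14387 and 3702 UMIs, a ratio of 2.29 (2.21 to 2.37). Birc3 had the opposite pattern, at 64.3 CPM in TAC against 119 CPM in sham, a ratio of 0.542 (0.514 to 0.570). These were the 1 gene of 10 that was higher by at least 1.5-fold and the 1 that was lower, where 14.8% of all 12772 measured genes were higher and 23.3% lower by that much. The other 8 genes differed by less. Rel was at 203 CPM in TAC and 155 in sham (ratio 1.31, 1.26 to 1.36), Nfkbia at 1461 and 1190 (1.23, 1.21 to 1.24) and Tnfrsf1a at 123 and 105 (1.17, 1.12 to 1.22). Nfkbiz was at 520 CPM in TAC and 688 in sham (ratio 0.756, 0.741 to 0.771) and Tnfrsf1b at 44.8 and 62.9 (0.712, 0.666 to 0.760). Tnfaip3 was at 166 CPM in TAC and 177 in sham, and the ratios of Nfkb1 (101 and 105 CPM) and Relb (42.1 and 41.1 CPM) had intervals that included 1. With at most 5% mitochondrial UMIs the log2 ratios of Nfkbia (-0.18) and Rel (-0.41) turned, and that of Relb moved to -0.70. With macrophages reduced to cluster 18, Nfkbia (-0.06) and Rel (-0.45) turned as well. The median gene of the class had a log2 ratio of -0.10.

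Other measures moved with these values. Neutrophil markers summed to 1926 CPM in TAC and 393 CPM in sham macrophages, with 24 of 27 measured markers higher and 1 lower, and monocyte markers to 1071 and 412 CPM, with 15 of 22 higher and 3 lower. The median mitochondrial share was 4.58% in TAC and 8.29% in sham macrophages. The part of these in the values of the 10 genes was not tested.

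The share of macrophages with Tnf RNA moved with the level. After each cell was thinned to 1000 UMIs, 22.9% of 2766 TAC macrophages (21.4 to 24.5) and 11.7% of 2656 sham macrophages (10.5 to 13.03) had a Tnf UMI; 1 shallower cell was left out of each. Without thinning, at median depths of 14198 and 8666 UMIs, the shares were 72.8% and 45.9%. Among C1q-low fibroblasts, thinned alike, 3 of 225 TAC cells (1.33%) and 0 of 182 sham cells had one, and a count of 0 allows up to 1.65% in sham. For Birc3 the thinned shares were 7.52% of TAC and 11.3% of sham macrophages, and for Nfkbiz 35.2% and 42.2%. For Nfkbia they were 59.0% and 56.7%.

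**Figure D2:**
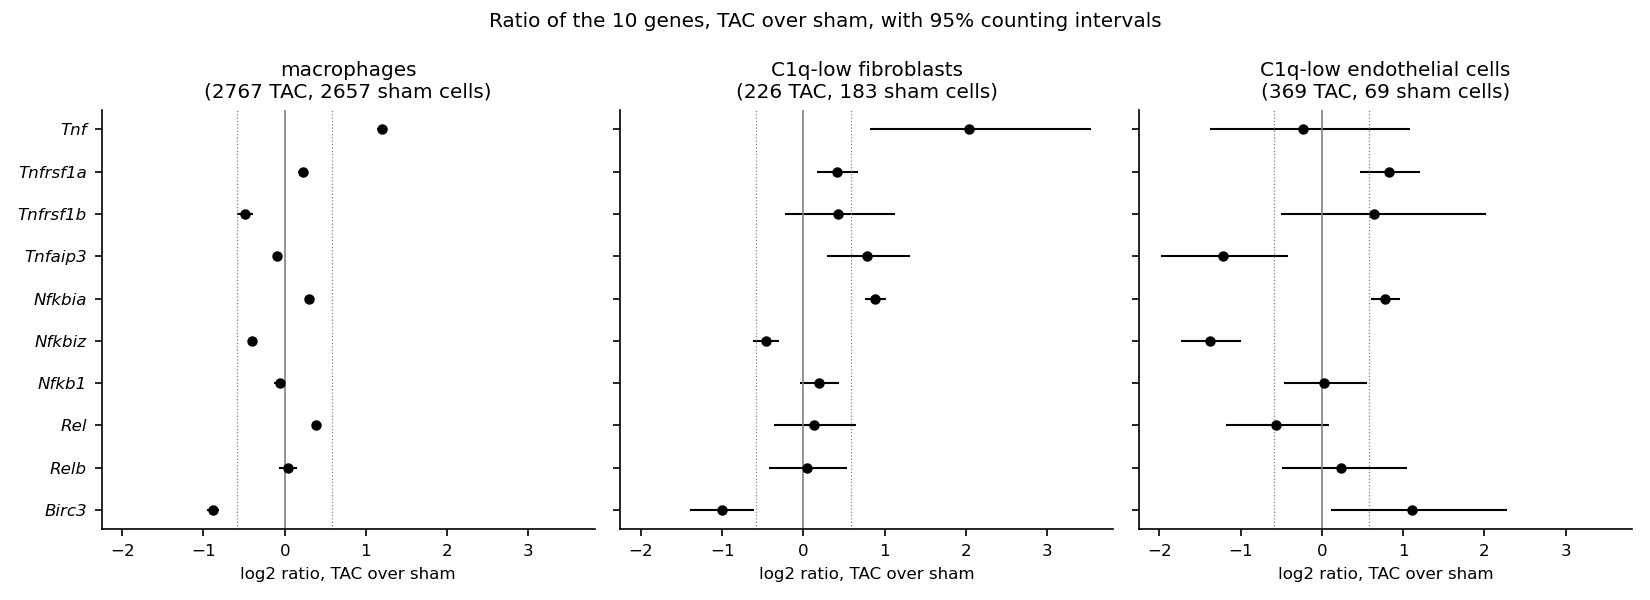
Log2 ratio of each gene, TAC over sham (horizontal axes), in macrophages, C1q-low fibroblasts and C1q-low endothelial cells, with exact 95% counting intervals. Dotted lines mark 1.5-fold in each direction. Tnf lay to the right and Birc3 to the left in macrophages, and Nfkbia lay to the right in both stromal classes.

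The 2 libraries drew their macrophages from different clusters. Cluster 1 held 1134 TAC and 20 sham cells and cluster 2 held 980 TAC and 38 sham cells, whereas cluster 15 held 123 and 1041, cluster 17 held 115 and 578, and cluster 18 held 80 and 825. Cluster 6, led by cell-cycle genes, held 335 TAC and 155 sham cells. Tnf was at 504 CPM in TAC cells of cluster 2 and 205 CPM in those of cluster 1. In the sham cells of these clusters, with 222 and 33 UMIs, it was at 536 and 166 CPM. Both had too few sham cells for a ratio. Tnf was among the genes that led cluster 2, so its level there is a description of the cluster. The other 4 clusters gave ratios within a cluster.

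Within clusters the direction of Tnf was not uniform. In cluster 6 Tnf was at 289 CPM in TAC and 129 CPM in sham (ratio 2.25, 1.999 to 2.53), and in cluster 17, led by Hspa1b, Hspa1a, Gdf15 and Ccl24, at 450 and 218 CPM (2.06, 1.87 to 2.27). In cluster 15, also led by Hspa1b and Hspa1a, it was at 192 CPM in TAC and 137 CPM in sham (1.41, 1.22 to 1.63). In cluster 18, led by Lyve1 and other genes of resident macrophages, it was at 49.6 CPM in TAC and 72.9 CPM in sham (0.680, 0.502 to 0.904), from 52 and 575 UMIs. The difference between clusters was not tested. All 13 heat-shock genes were lower in TAC by at least 1.5-fold in cluster 17 and 12 of 13 in cluster 15, and their part in the Tnf values was not tested. With these 4 clusters given equal weight, the log2 ratio of Tnf was 0.82, against 1.19 over all macrophages.

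**Figure D3:**
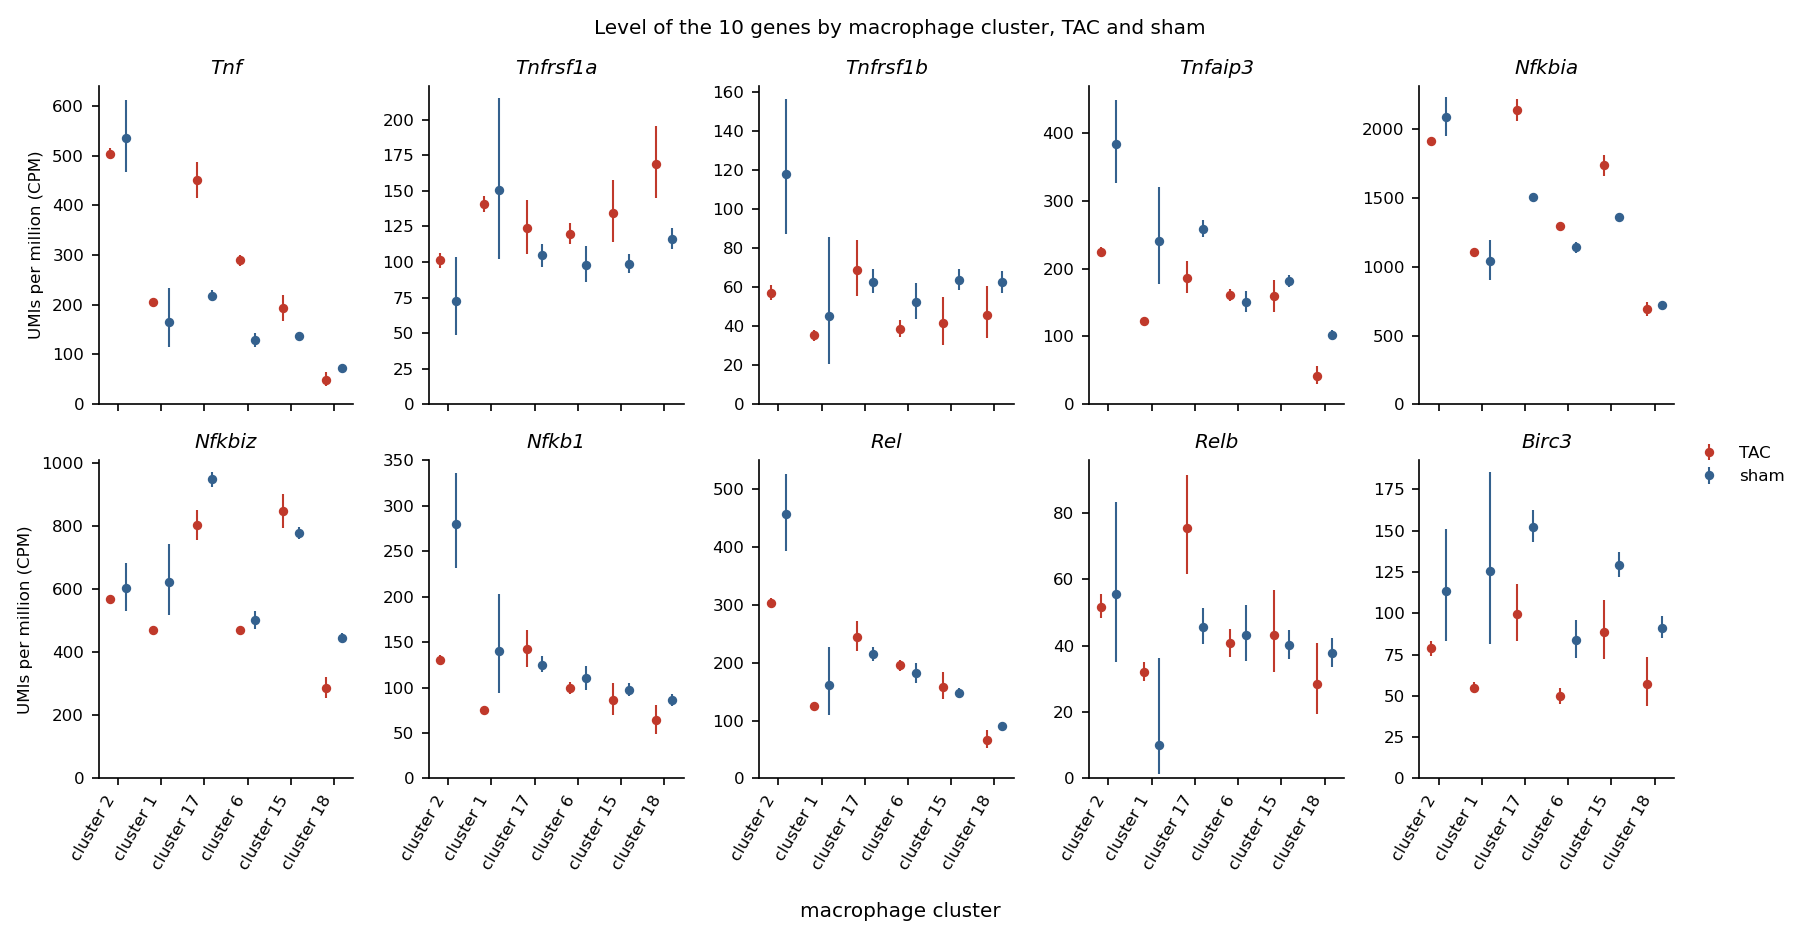
CPM of the 10 genes (vertical axes, each from 0) in the 6 macrophage clusters (horizontal axes), TAC in red left of sham in blue, with exact Poisson 95% intervals. Clusters 2 and 1 held only 38 and 20 sham cells. Tnf and Nfkbia were lowest in cluster 18, and Birc3 was lower in TAC in the 4 clusters with enough cells for a ratio.

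Birc3 was lower in TAC in each of the 4 clusters, with ratios from 0.592 to 0.687. It was at 49.7 CPM in TAC and 84.0 CPM in sham in cluster 6, and at 99.5 and 152 CPM in cluster 17. Tnfrsf1a was higher in TAC in all 4, with ratios from 1.18 to 1.45. Cluster 18 had 0 of the 10 genes higher and 3 lower by at least 1.5-fold, where 14% of its genes were higher and 14.9% lower: Tnfaip3 at 41.9 CPM in TAC and 101 in sham (ratio 0.413, 0.298 to 0.560), Birc3 at 57.2 and 91.3 CPM, and Nfkbiz at 287 and 446 CPM. In cluster 17, 2 genes were higher and 1 lower, where 11.2% and 18.7% of genes were. The second of these was Relb, at 75.3 CPM in TAC and 45.7 CPM in sham (1.65, 1.30 to 2.07). Cluster 6 had 1 higher and 1 lower, where 11.7% and 22.6% of genes were. Cluster 15 had 0 higher and 1 lower, Tnfrsf1b at 41.4 CPM in TAC and 63.9 in sham, where 13.2% and 15.1% of genes were.

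Macrophages with Tnf RNA also had more RNA of Nfkbia, Tnfaip3, Rel and Nfkbiz. In the thinned TAC cells, 634 macrophages with a Tnf UMI had 2515 CPM of Nfkbia and 2132 without one had 1231 CPM, a ratio of 2.04 (1.92 to 2.17), with Tnf left out of the totals. Among the other TAC ratios were 2.21 for Relb (1.54 to 3.14), 1.89 for Tnfaip3 (1.55 to 2.29), 1.62 for Rel (1.36 to 1.91), 1.55 for Tnfrsf1b (1.02 to 2.34) and 1.48 for Nfkbiz (1.33 to 1.66). These were 5 of the 9 genes at or past 1.5-fold, with Nfkbiz just under it, where 8.09% of 7602 measured genes were past it. Tnfrsf1a was not higher, at 94.8 CPM with and 124 CPM without Tnf (0.765, 0.568 to 1.02), and Birc3 had 1.34 (0.986 to 1.81). The actin gene Actb had a ratio of 0.987, while the macrophage genes C1qa, at 0.847 (0.819 to 0.876), and Lyz2, at 0.776 (0.755 to 0.797), were lower in the cells with Tnf. Whether these cells differ in macrophage state was not tested.

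In sham 4 of those genes were also higher in macrophages with Tnf RNA. Among 312 sham macrophages with and 2344 without a Tnf UMI the ratio was 1.77 for Tnfaip3 (1.40 to 2.23), 1.71 for Rel (1.33 to 2.19), 1.54 for Nfkbia (1.40 to 1.69) and 1.46 for Nfkbiz (1.29 to 1.66), so that 3 of 9 were past 1.5-fold, where 11.6% of 7760 genes were. Relb had 1.30 (0.731 to 2.20), Tnfrsf1b 0.723 (0.395 to 1.23) and Birc3 1.19 (0.856 to 1.62). C1qa had 0.818 (0.779 to 0.858) and Lyz2 0.893 (0.865 to 0.921). The same comparison inside clusters was possible in 5 sets of cells, clusters 1, 2 and 6 in TAC and clusters 15 and 17 in sham. Nfkbia, Nfkbiz, Tnfaip3 and Rel had ratios above 1 in all 5, with intervals above 1 in 4 for Nfkbia and in 3 for each of the others. Birc3 was above 1 in 2 of the 5, with an interval above 1 in 0. Past 1.5-fold were 5 of 9 genes in cluster 1, 3 of 9 in cluster 2, 3 of 6 measured in cluster 6, 1 of 9 in cluster 15 and 0 of 9 in cluster 17, where 11%, 10.8%, 13.1%, 15.5% and 12.5% of genes were. In TAC cluster 2 the Nfkbia level was 2920 CPM with and 1635 CPM without a Tnf UMI (1.79, 1.63 to 1.95), and in sham cluster 17 it was 1610 and 1461 CPM (1.10, 0.927 to 1.30).

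**Figure D4:**
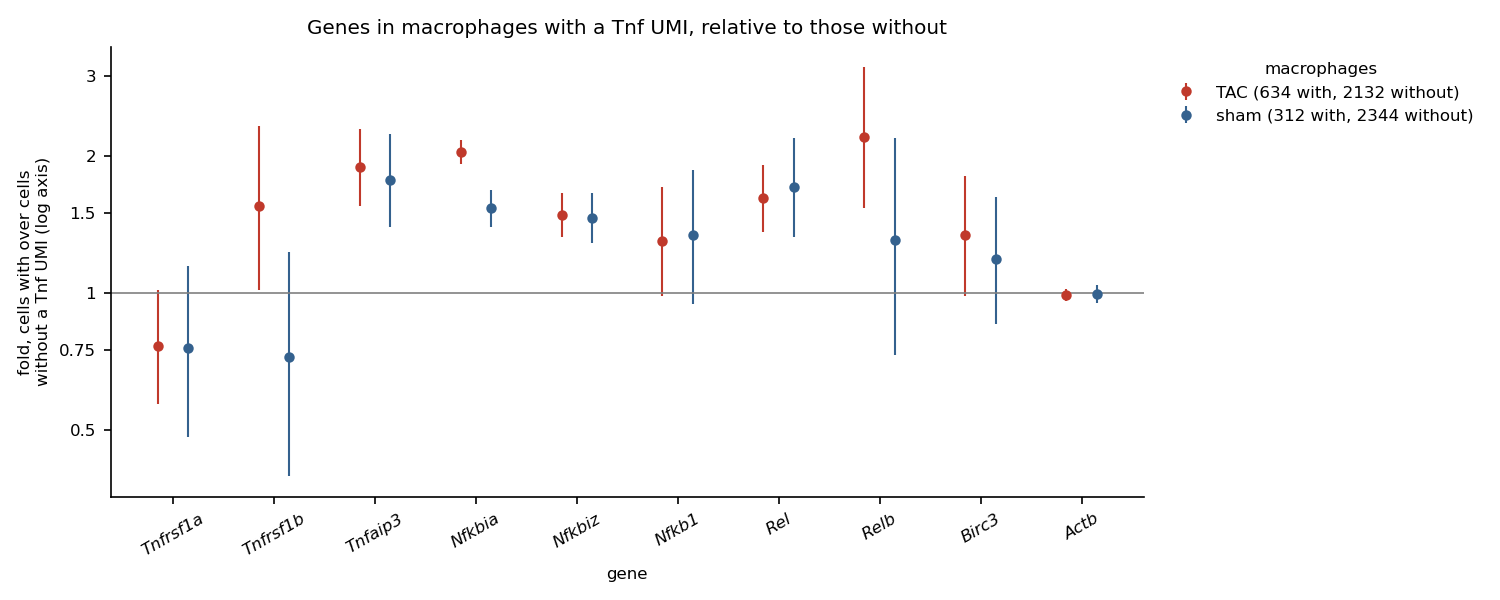
Ratio (log axis) of each gene's level in macrophages with a Tnf UMI over those without, after thinning to 1000 UMIs, TAC in red left of sham in blue, with exact 95% counting intervals. Nfkbia, Tnfaip3, Rel and Nfkbiz lay above 1 in both libraries, and Actb lay at 1.

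Nfkbia RNA was higher in TAC in both stromal classes when barcodes rich in C1q were left out. The 226 TAC and 183 sham C1q-low fibroblasts summed to 5259 and 8350 CPM over the 45 macrophage marker genes, and the 369 TAC and 69 sham C1q-low endothelial cells to 4007 and 4637 CPM, against 66440 and 86798 CPM in macrophages. In each of both stromal classes 2 of the 45 had no UMI in either library. Neutrophil markers were higher in TAC for 13 of 14 measured in fibroblasts (1426 CPM in TAC and 972 in sham) and for 18 of 19 in endothelial cells (3264 and 150 CPM). Erythroid markers were lower in TAC for all 5 measured in fibroblasts (547 and 3636 CPM) and all 7 in endothelial cells (8937 and 24410 CPM). The part of that RNA in the results was not tested. In fibroblasts Nfkbia was at 672 CPM in TAC and 363 CPM in sham (1.85, 1.69 to 2.03), and in endothelial cells at 868 and 506 CPM (1.72, 1.52 to 1.94). The thinned shares of cells with an Nfkbia UMI followed, at 32.9% of TAC and 23.6% of sham fibroblasts and at 46.0% of TAC and 27.5% of sham endothelial cells.

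The other NF-kB-induced genes went different ways in the 2 stromal classes. Nfkbiz was lower in endothelial cells, at 64.0 CPM in TAC and 166 CPM in sham (0.386, 0.300 to 0.4998), and at 225 and 309 CPM in fibroblasts (0.728, 0.651 to 0.814). Tnfaip3 was at 16.4 CPM in TAC and 38.0 in sham in endothelial cells (0.430, 0.254 to 0.751), and at 44.3 and 25.6 CPM in fibroblasts (1.73, 1.23 to 2.49). The thinned share of fibroblasts with a Tnfaip3 UMI went against that level, at 0.444% in TAC and 2.75% in sham, from 1 and 5 cells. Birc3 was at 31.3 CPM in TAC and 62.8 in sham in fibroblasts (0.499, 0.380 to 0.656), where the thinned shares of 5.33% and 5.49% did not follow. In endothelial cells it was at 33.4 and 15.5 CPM from only 94 and 9 UMIs (2.15, 1.09 to 4.85). Among the receptors, Tnfrsf1a was at 209 CPM in TAC and 117 in sham endothelial cells (1.78, 1.38 to 2.32), but its thinned shares were 15.3% and 15.9%. C1q-low fibroblasts had 3 genes higher and 1 lower of 10, where 10.6% and 18.5% of 10165 genes were. The 3 were Nfkbia, Tnfaip3 and Tnf. That Tnf level, 15.01 CPM in TAC and 3.66 in sham, cannot be told apart from free RNA. C1q-low endothelial cells had 4 genes higher and 2 lower, where 16.4% and 17.8% of 9055 genes were. The 4 were Nfkbia, Tnfrsf1a, Birc3 and Tnfrsf1b. Tnfrsf1b was at 18.8 CPM in TAC and 12.1 in sham, from only 53 and 7 UMIs. Of the listed NF-kB target genes 13 of 23 were higher and 1 lower in C1q-low fibroblasts (median log2 ratio 0.68). In C1q-low endothelial cells 7 of 25 were higher and 5 lower (median 0.14). This list was chosen with earlier results of these data known.

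With all barcodes of a class included, 0 of 10 genes were higher and 2 lower in fibroblasts, where 9.69% and 19.2% of all genes were, and 2 were higher and 2 lower in endothelial cells, where 14.4% and 16.7% were. Tnf in endothelial cells was then at 92.6 CPM in TAC and 51.6 in sham, against 11.7 and 13.8 CPM in C1q-low cells, and Birc3 at 45.6 and 79.2 CPM, the opposite direction.

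In monocytes 1 of the 10 genes was higher in TAC and 5 were lower, where 17.5% of genes were higher and 19.2% lower. Sham monocytes lay mostly in cluster 16 (99 TAC and 382 sham cells) and TAC monocytes in clusters 5 (136 and 20) and 10 (162 and 29), so levels of the class compare different clusters. Tnfrsf1a was at 157 CPM in TAC and 88.2 in sham, and Tnfaip3 at 83.5 and 206 CPM. The NF-kB subunit gene Rel was at 196 CPM in TAC and 296 in sham. In the 238 TAC and 97 sham C1q-low monocytes 2 genes were higher and 5 lower, where 21.9% and 16.3% of genes were, and Tnf was at 59.3 CPM in TAC and 77.0 in sham (0.771, 0.599 to 1.001). In these C1q-low barcodes neutrophil markers summed to 18768 CPM in TAC and 692 CPM in sham, with 24 of 26 measured markers higher, and monocyte markers to 17397 and 5236 CPM, with 17 of 22 higher. Their part in the counts was not tested. Within cluster 16, 0 genes were higher and 3 lower, where 14.9% and 17.7% were. Conventional dendritic cell markers there summed to 19167 CPM in TAC and 7679 in sham, with 20 of 26 higher and 3 lower. Macrophage markers summed to 31518.5 and 49220 CPM, with 3 of 45 higher and 25 lower. Monocyte markers summed to only 1584 and 1848 CPM, with 9 of 20 measured higher and 7 lower. The part of these markers in the cluster 16 counts was not tested.

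Neutrophils, T cells, NK cells and B cells had too few C1q-low sham barcodes for a ratio, with 15, 9, 3 and 2. With all barcodes, 1 gene was higher and 4 lower in neutrophils, where 11.8% and 36% of genes were and the median gene had a log2 ratio of -0.34. Neutrophil cluster 7, with 423 TAC and 161 sham cells and much C1q, had 1 higher and 2 lower, where 14.4% and 22.4% were. In T cells 0 were higher and 3 lower, where 19.6% and 19% of genes were. In NK cells 0 were higher and 2 lower, where 24.6% and 20.4% were, and in B cells 1 was higher and 1 lower, where 14.6% and 23.9% were. Tnfaip3 stood highest in T cells and NK cells in sham, while in TAC the interval of NK cells (177 CPM) overlapped those of T cells and macrophages. T cells were at 180 CPM in TAC and 305 in sham, and the C1q-low ones at 215 CPM in 86 TAC cells and 351 CPM in 9 sham cells.

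Across the 8 classes Nfkbiz and Birc3 were below 1 as a ratio in all 8, past 1.5-fold in 7 and 6, with all barcodes included. The classes are not separate readings, because each held C1q-rich barcodes. Among C1q-low barcodes Nfkbiz was lower in TAC in monocytes (176 and 297 CPM), fibroblasts and endothelial cells. Birc3 was lower in C1q-low monocytes (57.0 and 94.9 CPM) and fibroblasts, but higher in C1q-low endothelial cells (33.4 and 15.5 CPM). Tnfrsf1a was above 1 in all 8 and past 1.5-fold in 2. Relb varied least across classes, with ratios from 0.755 to 1.12 and levels from 29.1 to 42.1 CPM in TAC and from 29.3 to 46.5 CPM in sham. The sham library also had more RNA of immediate-early and heat-shock genes, which are known to rise when tissue is handled and digested. Immediate-early genes had a median log2 ratio below 0 in all 8 classes, from -1.31 to -0.51, and heat-shock genes from -2.16 to -0.43. In macrophages 1 of 20 immediate-early genes was higher and 15 lower, with Klf4 at 405 CPM in TAC and 1563 in sham. Their part in the Nfkbiz, Birc3 and Tnfaip3 values was not tested.

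The listed genes of the wider pathway in macrophages were mixed upstream and mostly higher among target genes. The target list was chosen with earlier results of these data known. Its genes Ccl4, Bcl2a1b and Bcl2a1d also led cluster 2, with 980 TAC and 38 sham cells. The counts therefore only describe the listed genes. Of 26 measured NF-kB target genes, 16 stood at least 1.5-fold above sham and 3 as far below it (median 0.87 on the log2 scale), where 14.8% and 23.3% of all genes of the class were. The cyclooxygenase gene Ptgs2 was at 55.8 CPM in TAC and 15.1 in sham (3.70, 3.32 to 4.13) and Il12b, a subunit of interleukin 12, at 6.79 and 0.309 CPM from few sham UMIs. Il6 was at 1.61 and 4.48 CPM and Ier3 at 283 and 684 CPM. Within clusters the same list had 13 higher and 2 lower of 26 in cluster 6 (median 0.71), 9 and 1 of 25 in cluster 15 (0.39), 12 and 1 of 25 in cluster 17 (0.52), and 2 and 10 of 25 in cluster 18 (-0.11). The shares of all genes higher and lower were 11.7% and 22.6% in cluster 6, 13.2% and 15.1% in cluster 15, 11.2% and 18.7% in cluster 17, and 14% and 14.9% in cluster 18.

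The other lists are read against the same 14.8% higher and 23.3% lower of all macrophage genes, and the brakes, with 3 higher and 3 lower of 15, lay near these shares. Of the receptor complex 1 of 21 genes was higher and 3 were lower (median 0.09). Sharpin, part of the linear ubiquitin ligase, was at 27.5 CPM in TAC and 14.7 in sham, and the kinase gene Map3k8 at 65.9 and 114 CPM. Of the other brakes 3 of 15 were higher and 3 lower (median 0.12): Socs1 was at 33.3 CPM in TAC and 7.91 in sham and the A20-binding Tnip3 at 103 and 41.7 CPM, while Zfp36 was at 1369 and 2151 CPM and the deubiquitinase Otud7b at 2.66 and 12.2 CPM. Among other subunits and IkB proteins 1 of 6 was higher and 1 lower (median 0.01), Nfkbib at 103 CPM in TAC and 50.2 in sham and Nfkbid at 30.4 and 73.7 CPM. Of the noncanonical pathway 5 of 10 were higher and 0 lower (median 0.60), with the Tweak receptor gene Tnfrsf12a at 31.5 CPM in TAC and 10.2 in sham and the kinase gene Map3k14 at 13.1 and 19.6 CPM. Of the genes that process the Tnf ligand 0 of 6 were higher and 1 was lower (median 0.08), Rhbdf1 at 2.95 CPM in TAC and 11.7 in sham. The shedding protease gene Adam17 differed by less than 1.5-fold, at 52.1 CPM in TAC and 59.2 in sham. All 20 interferon genes were higher (median 2.89), with Gbp2 at 626 CPM in TAC and 20.9 in sham. The lists were chosen with earlier results of these data known.

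Over the 16 values of 8 classes and 2 libraries, the gene most like Tnf among 4914 candidates was Ly86 (Pearson r of log2 CPM 0.96), followed by Ucp2 and Clec12a. Rel was most like Dapp1 (0.97), Nfkbiz like Neat1 (0.95) and Dusp1 (0.95), Nfkbia like Tlr2 (0.91) and Birc3 like Marcksl1 (0.91). The best match of Relb reached 0.76. The points share libraries and macrophage RNA, so these values only describe the pattern.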

How the data were processed

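Raw UMI counts per gene and barcode were deposited by the authors, 1 matrix for TAC and 1 for sham. The submitters' processing notes name Cell Ranger 3.0 and mm10. The labels speak of several droplet runs per sample, which could not be separated. Kept barcodes had 300 or more genes and no more than 10% mitochondrial UMIs. Both libraries were clustered together without integration (scanpy 1.11.5, igraph 0.11.9; 2000 variable genes, 30 components, 15 neighbours, Leiden resolution 1), leaving the 10 genes and the pathway lists out of the variable genes. Clusters were named by at least 3 class markers among 10 leading genes, or else by at least 55% of a class's markers detected in at least 50% of cells. A median of 20 C1q UMIs per 10000 was also needed for macrophages. That C1q amount, and 50 CPM added when leading genes were ranked, were set after seeing the data. Doublets were not removed. UMIs were summed per class and library and given as CPM with exact Poisson intervals. Ratios have exact conditional binomial intervals and shares Clopper-Pearson intervals (95%), which cover counting error only. A ratio needed 50 cells per library and 20 UMIs over both. In counts over all genes 0.5 UMI was added to each gene other than the 10. With 1 library per group there is no test. For shares, every cell was reduced at random to 1000 UMIs. Genes were named by rule: the 10 genes, up to 2 highest and 2 lowest of each list, and the most alike genes. The ratio and its interval were tested on simulated counts with counting error only. These held no variation between cells, animals or libraries, so they cannot show how the intervals fare with it. The 10 genes and the lists were chosen with earlier results of these data known. Promoters came from RefSeq (GRCm38.p6) and 3′ untranslated regions from GENCODE vM21. Alternatives covered the filters, clustering, naming, scaling, depth and C1q. Other software was pandas 2.3.3, numpy 2.4.6, Python 3.11.15, matplotlib 3.10.9 and scipy 1.17.1.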

Additional observations from a re-analysis of the deposited data

Results flagged for a closer look

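The following differences run in opposite directions between cell sets and were not tested against each other. The Tnfaip3 ratio, TAC over sham, was 1.73 in C1q-low fibroblasts, against 0.43 in C1q-low endothelial cells and 0.413 in macrophage cluster 18. The Birc3 ratio was 2.15 in C1q-low endothelial cells, from 94 TAC and 9 sham UMIs, against 0.499 in C1q-low fibroblasts and 0.592, 0.653 and 0.626 in macrophage clusters 6, 17 and 18. In the unnamed clusters, which entered no comparison, the Tnfrsf1a ratio was 1.52, from 185 TAC and 211 sham UMIs.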

How the results depend on the processing

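No paired analysis was possible because each group is 1 library. The log2 ratio of Tnf in macrophages, 1.19 as reported, was 0.72 with at most 5% mitochondrial UMIs, 1.30 with the median of all genes set to 0 and 1.32 with cells thinned to 1000 UMIs. It was 0.58 in macrophages with at least 2 UMIs of Lyve1, Folr2 and Timd4 (713 TAC and 1514 sham cells), under 1.5-fold, and 0.92 in those with none. With alternatives chosen after seeing the data it was 1.03 in clusters 6, 15, 17 and 18 only and 0.82 with these weighted equally. With clusters named by leading genes only, cluster 18 alone was left as macrophages: Tnf was at -0.56 and the median of NF-kB target genes at -0.11. Macrophage counts of the 10 genes were then 0 higher and 3 lower, 3 lower at 5% mitochondrial UMIs, 2 lower after thinning, and 0 higher and 2 lower with resident-gene UMIs.

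Other counts moved as follows. In neutrophils 0 were higher with at least 500 genes, at most 25% mitochondrial UMIs, the 10 genes and lists among the clustering genes, or totals without mitochondrial genes, and 2 higher and 1 lower with the median set to 0. In B cells 0 were lower with 500 genes, 25% mitochondrial UMIs, resolution 2, the listed genes in clustering, the median set to 0 or the deepest 5% of barcodes left out, and 2 were lower at resolution 0.5, without mitochondrial totals or after thinning, which gave 3 higher. Thinning also gave 3 lower in monocytes, 1 higher in T cells, 1 lower in NK cells and 1 higher in endothelial cells. In fibroblasts 1 was higher at 25% mitochondrial UMIs and 2 with the median set to 0. In endothelial cells 1 was lower at 25% mitochondrial UMIs, and 1 was higher and 4 lower without the deepest 5%, which left 3 lower in monocytes. Without C1q-rich barcodes 2 were higher in monocytes, 3 higher and 1 lower in fibroblasts and 4 higher in endothelial cells.

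Beside Tnf in macrophages, ratios past 1.5-fold as reported turned for Tnf (-0.24) and Birc3 (1.10) in endothelial cells without C1q-rich barcodes, for Tnfrsf1a there after thinning (-0.14), and the direction turned for the Tnfrsf1b share of macrophages without thinning (0.0092). Apart from the constructions named, the cause was not tested. Among ratios under 1.5-fold, Nfkbia in macrophages turned at 5% mitochondrial UMIs (-0.18) and as cluster 18 alone (-0.06), and Rel under both (-0.41 and -0.45) and in macrophages with resident-gene UMIs (-0.17). Relb moved to -0.70 at 5% mitochondrial UMIs. Of 1023 log2 ratios over all alternatives, 49 changed sign, 4 of them past 1.5-fold as reported and 45 under it. Small classes and 1 library per group limit every value.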
